A study of Mus musculus with 2 samples.

Results

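The Zfp genes are mouse genes named for the zinc finger proteins they encode. Members were selected by their symbol, Zfp followed by a number and at most 1 letter, and by the total reads of that symbol over 2 libraries of RNA isolated together with chromatin. Of 339 such symbols in the deposited files, 176 had at least 50 reads over both libraries, and these are the genes described here, out of 8930 genes with that many reads. The remaining 163 Zfp symbols stayed below the minimum. The symbols just inside it were Zfp654 (50 reads), Zfp110 (52 reads) and Zfp597 (53 reads), and Zfp622, Zfp810 and Zfp955a lay just outside with 49 reads each.

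Most Zfp genes encode C2H2 proteins, in which short repeats hold a zinc ion between cysteine and histidine residues and read the bases of DNA or, less often, of RNA. A large subgroup also carries a KRAB domain, which recruits the corepressor encoded by Trim28 (KAP1) and, through it, the histone methyltransferase encoded by Setdb1. KRAB zinc finger genes lie in clusters that arose by repeated duplication, and many of their proteins silence retroelements.

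The study isolated telomeric chromatin by enChIP, in which a tagged DNA-binding protein pulls down its target region with the RNA attached to it, and asked which RNAs came with telomeres. Both groups were derived from Ba/F3, an interleukin-3-dependent mouse hematopoietic cell line from strain C3H, and stably expressed a protein with a 3xFLAG tag and a nuclear localization signal. In 3xFN-Tel-TAL this protein was a TAL protein that recognizes telomeric repeats, and in 3xFNLDD it was the bacterial protein LexA, the negative control. All cells were crosslinked with formaldehyde, their chromatin was sonicated, and anti-FLAG M2 antibody was used for the isolation. Each group has 1 library, made from 60 ng of RNA with a kit that does not mark strand, so no difference below has a replicate check and no test between the groups was possible. The study's methods give other and unequal amounts of purified RNA for the groups. Whether the expressing cells were clones or pools is not given in the sources used here.

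The 3xFNLDD library held 7206183 reads and the 3xFN-Tel-TAL library 9774844. Levels are given as RPM, the deposited read counts scaled to a common library total, which are not divided by transcript length and are therefore not compared between genes. A floor of 3 reads is worth 0.416 RPM for 3xFNLDD and 0.307 RPM for 3xFN-Tel-TAL. Ratios are log2 values of RPM in 3xFN-Tel-TAL over RPM in 3xFNLDD, with exact 95% intervals in parentheses, and a gene is counted as above or below where it passes 1.4-fold. The intervals cover counting error only and treat each read as independent. PCR copies of a molecule were not recognized, so the intervals can be too narrow. A lower abundance of an RNA in the isolate and a smaller share of it in the library cannot be told apart. The ratios also carry a shift: 11 RNAs took 84.8% of the 3xFNLDD library and 81.1% of the 3xFN-Tel-TAL library, and the median log2 ratio of all 8930 genes was 0.40 rather than 0. TMM scaling, which estimates the library factor from the bulk of the genes, moves every ratio by -0.37, so a log2 ratio near 0.4 stands for a gene that followed the others. Of the markers of Ba/F3, the receptor chains Csf2rb (583 and 1052 reads in 3xFNLDD and 3xFN-Tel-TAL) and Csf2rb2 (751 and 849 reads) were read deeply and Il3ra, Ptprc and Pax5 were detected, whereas Ebf1 had 9 and 14 reads and Kit, Cd79a, Cd79b, Vpreb1 and Igll1 had at most 4 in a library. Of 10 markers of other cell types, 3 were not listed, 6 had at most 15 reads in a library, and Hbb-b1 had 49 and 73 reads.

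The Zfp genes were read at about the depth of other genes, with 143 reads for the median member against 141 for the median gene. Their ratios lay close to those of all genes. The median log2 ratio was 0.32 against 0.40, with the middle 50% of members between 0.02 and 0.56. Above 1.4-fold were 60 of 176 members (34.1%), where the background over all genes is 42.2%. Below 1/1.4-fold were 10 members (5.68%), where the background is 7.61%. Only 12 members (6.82%) had an interval wholly above 1.4-fold, against 12% of all genes, and 3 members (1.70%) had one wholly below, against 2.19%. With TMM scaling the median of the Zfp genes turned slightly negative, -0.05, with 19 members (10.8%) above and 28 (15.9%) below, beside 18.7% and 17.4% of all genes. Most single members were not resolved from equality, as the interval of 111 of 176 included 0, beside 4564 of all 8930 genes. Because the minimum is set on the sum of both libraries, a member with few reads in 1 of them could pass only through the other: 16 members had under 25 reads in 3xFNLDD and 1, Zfp773, had under 25 in 3xFN-Tel-TAL. No member was at 0 in either library.

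**Figure D1:**
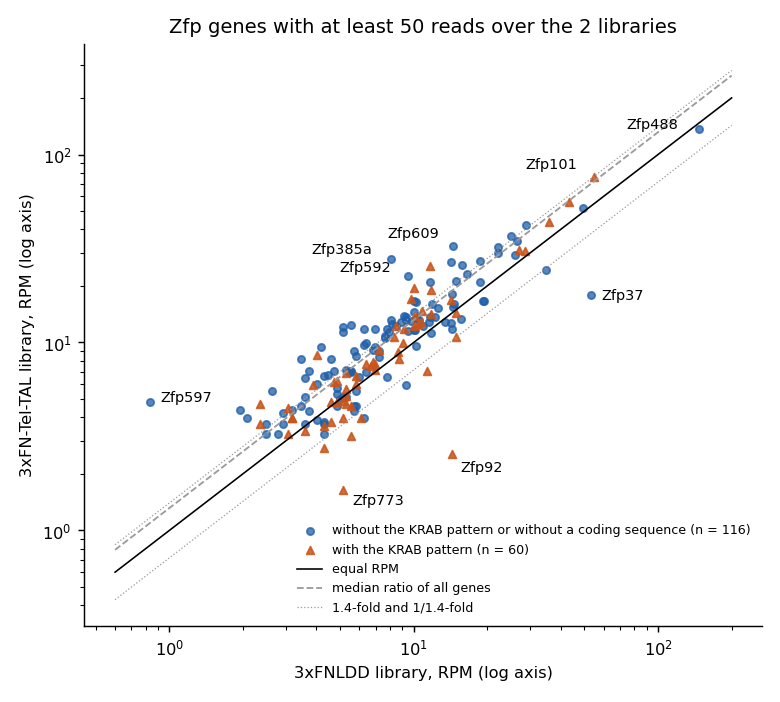
RPM of the 176 Zfp genes in the 3xFNLDD library (x, log axis) and the 3xFN-Tel-TAL library (y, log axis). Each point is 1 gene, triangles are genes with the KRAB pattern, and the dashed line is the median ratio of all genes. Most points follow the dashed line, Zfp385a and Zfp597 lie above it, and Zfp92, Zfp773 and Zfp37 lie well below equal RPM.

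The highest ratio among members with at least 100 reads belonged to Zfp385a, which encodes an RNA-binding zinc finger protein that also partners p53. It had 58 reads (8.05 RPM) with 3xFNLDD against 272 reads (27.8 RPM) with 3xFN-Tel-TAL, giving a log2 ratio of 1.79 (1.38 to 2.22), or 3.46-fold. With TMM scaling the ratio was 1.42. All its reads were assigned to 1 transcript. No coding transcript of another gene shared 95% identical stretches of 50 bases or more with it. The gene lies on chr15:103313895-103340086 (GRCm38). The RefSeq table (GRCm38.p6) gives promoters from 250 bases before to 50 bases after a start, and the promoter of an internal start of Zfp385a holds the telomeric hexamer TTAGGG, which is shown in capitals because Tel-TAL was built to recognize telomeric repeats. The stretch on chr15:103334404-103334463 is given on the gene's strand, where the hexamer reads CCCTAA:
Zfp385a: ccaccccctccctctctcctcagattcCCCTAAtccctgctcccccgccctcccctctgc

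The next genes in this order included some for transcriptional regulators. Zfp592, whose protein forms a complex with that of Zfp687, had 68 reads (9.44 RPM) with 3xFNLDD against 221 (22.6 RPM) with 3xFN-Tel-TAL, giving a log2 ratio of 1.26 (0.86 to 1.67). Zfp609, whose product works with the cohesin loader, had 104 reads (14.4 RPM) and 320 (32.7 RPM), a log2 ratio of 1.18 (0.86 to 1.52). Both intervals lay wholly above 1.4-fold and above the median of all genes. Zfp146, which encodes a protein made almost entirely of fingers, had 25 and 80 reads (3.47 and 8.18 RPM), a log2 ratio of 1.24 (0.57 to 1.95). The list was completed by Zfp280b (37 and 118 reads, log2 ratio 1.23), Zfp629 (30 and 93 reads, 1.19), Zfp362 (40 and 121 reads, 1.16) and Zfp444 (37 and 111 reads, 1.15), in each case with the 3xFNLDD reads first. None of these 8 genes carried the KRAB pattern described below. The next in order did carry it, namely Zfp871 (84 and 248 reads, 1.12) and Zfp777 (29 and 84 reads, 1.09). The highest ratio of all members rested on few reads: Zfp597, just inside the minimum, had 6 reads with 3xFNLDD against 47 with 3xFN-Tel-TAL, giving a log2 ratio of 2.53 (1.30 to 4.05). Of its exonic bases, 24.2% lie opposite exons of Nat15 and Gm17348, and without strand the reads of these genes cannot be told apart.

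At the other end, Zfp92 and Zfp37 stood apart from the rest. Zfp92, a KRAB gene on chrX:73410949-73428382, had 103 reads (14.3 RPM) with 3xFNLDD against 25 reads (2.56 RPM) with 3xFN-Tel-TAL, giving a log2 ratio of -2.48 (-3.18 to -1.84). Zfp37, on chr4:62189537-62209129 and first known for its transcript in male germ cells, had 382 reads (53.0 RPM) and 175 reads (17.9 RPM), a log2 ratio of -1.57 (-1.83 to -1.30). For both the interval lay wholly below 1/1.4-fold. The reads of each came from 1 transcript, and they shared 2.81% and 0% of their bases with coding transcripts of other genes. Zfp773, a KRAB gene with 37 and 16 reads, was the only other member with such an interval, at -1.65 (-2.59 to -0.77). It lies below the minimum of 100 reads of this ranking and was singled out after its values were seen.

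The remaining low members were closer to equality. Zfp560 (82 and 69 reads) had a log2 ratio of -0.69 (-1.17 to -0.21), Zfp457 (67 and 58 reads) -0.65 (-1.18 to -0.12), Zfp839 (251 and 238 reads) -0.52 (-0.78 to -0.26) and Zfp605 (107 and 105 reads) -0.47 (-0.87 to -0.06). Zfp560, Zfp457 and Zfp839 were below 1/1.4-fold, and all 4 intervals lay below 0 and below the median of all genes. For Zfp874a (103 and 116 reads, -0.27) and Zfp259 (56 and 64 reads, -0.25) the interval included 0 but lay below the median of all genes. With TMM scaling these genes were at -0.64 and -0.62, below 1/1.4-fold. The product of Zfp259 is known as ZPR1.

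**Figure D2:**
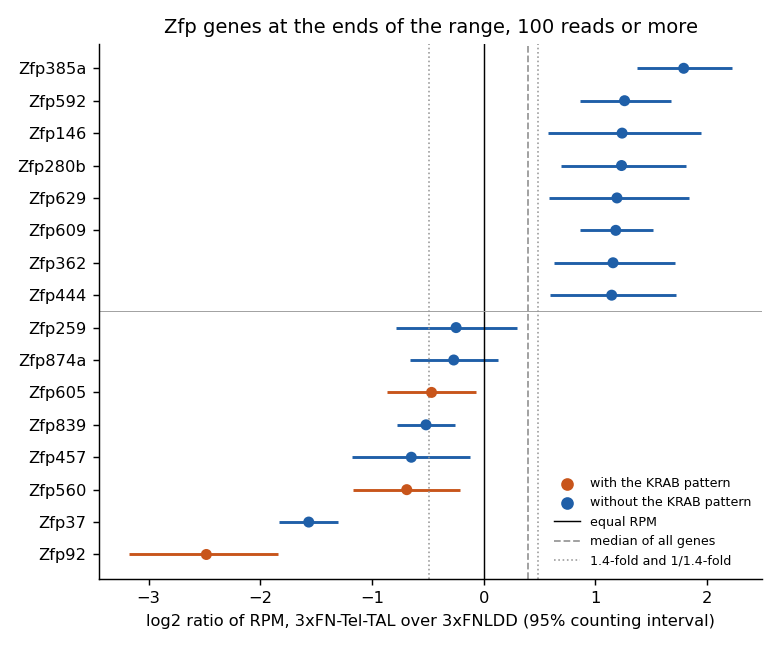
Log2 ratio of RPM, 3xFN-Tel-TAL over 3xFNLDD (x), of the 8 highest and 8 lowest Zfp genes among those with at least 100 reads, with exact 95% counting intervals as bars. The upper 8 lie between 1.15 and 1.79 and all lack the KRAB pattern. The next in order, Zfp871 and Zfp777, are not shown and carry it. The lowest 2, Zfp37 and Zfp92, lie at -1.57 and -2.48.

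The 6 members with the most reads gave narrow intervals, and only Zfp451 of them was past 1.4-fold. Zfp488, which encodes a cofactor of oligodendrocyte differentiation, had 1059 reads (147 RPM) with 3xFNLDD against 1335 (137 RPM) with 3xFN-Tel-TAL, giving a log2 ratio of -0.11 (-0.22 to 0.01). It shares 23.7% of its bases with other genes, mainly Gm17646, so part of its reads cannot be placed with certainty. Zfp277, whose product helps to recruit Polycomb proteins, had 355 and 508 reads, a log2 ratio of 0.08 (-0.12 to 0.28). These intervals lay wholly below the median of all genes, so relative to the other genes both were lower in 3xFN-Tel-TAL than in 3xFNLDD. Zfp940 (258 and 430 reads, log2 ratio 0.30), Zfp9 (311 and 547 reads, 0.37), Zfp101 (393 and 745 reads, 0.48) and Zfp451 (207 and 412 reads, 0.55 or 1.47-fold) had intervals that included that median. Of these, Zfp451, which encodes a SUMO ligase, was above 1.4-fold and Zfp101 was just under the threshold.

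The genes were next taken by the role of their proteins. Of 8 genes for imprinting and retroelement silencing, 3 reached 50 reads. Zfp445, required to maintain imprints, had 74 and 132 reads and a log2 ratio of 0.40 (-0.03 to 0.83), and Zfp568, a repressor of a placental Igf2 transcript, had 50 and 93 reads and 0.46 (-0.06 to 0.98). Zfp932 had 72 and 119 reads and 0.29 (-0.15 to 0.73), and it shares 77.7% of its bases with other genes, mainly Gm15446. All 3 intervals included the median of all genes. Below the minimum, Zfp809, which recognizes a primer binding site of murine leukemia viruses, had 14 and 16 reads and Zfp708 had 2 and 8, while Zfp57, Zfp42 and Zfp638 were not listed.

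Of 9 genes for RNA binding, splicing and translation, 7 reached the minimum, and 3 of them were above 1.4-fold, a share near the 42.2% of all genes. These were Zfp385a, already described, Zfp346 (56 and 116 reads, log2 ratio 0.61, interval 0.14 to 1.10), whose product binds double-stranded RNA, and Zfp598 (107 and 207 reads, 0.51, interval 0.17 to 0.86), whose product marks collided ribosomes. With TMM scaling the values of Zfp346 and Zfp598 were 0.24 and 0.14, short of 1.4-fold. Zfp106 (190 and 337 reads, 0.39), Zfp326 (52 and 82 reads, 0.22), Zfp207 (187 and 287 reads, 0.18) and Zfp830 (74 and 94 reads, -0.09) were within 1.4-fold. Of the exonic bases of Zfp106, 27.3% lie opposite Gm17675. Zfp36, which encodes the mRNA-decay factor tristetraprolin, had 6 and 14 reads, and Zfp622, with a role in maturation of the large ribosomal subunit, had 18 and 31.

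Of 15 genes for chromatin and transcription, 11 reached the minimum, with a median log2 ratio of 0.55 and 7 above 1.4-fold, beside a median of 0.40 and a share of 42.2% for all genes. Besides Zfp592, Zfp609 and Zfp451 these were Zfp687, the partner of Zfp592 (114 and 253 reads, 0.71, interval 0.39 to 1.04), Zfp644, which works with the methyltransferases G9a and GLP (74 and 161 reads, 0.68), Zfp217 of the CoREST complex (67 and 134 reads, 0.56) and the ubiquitin ligase gene Zfp91 (134 and 264 reads, 0.54). With TMM scaling only Zfp592 and Zfp609 of these 7 stayed above 1.4-fold, at 0.89 and 0.81, beside 18.7% of all genes. Zfp384 (91 and 149 reads, 0.27), Zfp281 (27 and 42 reads, 0.20) and Zfp148 (97 and 125 reads, -0.07) were within 1.4-fold. Zfp827, whose human counterpart brings the NuRD complex to telomeres that are maintained by recombination, had 36 reads (4.996 RPM) and 49 reads (5.013 RPM), a log2 ratio of 0.00 (-0.65 to 0.67). Its mRNA was thus at the same RPM in both isolates within a wide interval. Of those below the minimum, Zfp143 had 16 and 12 reads, Zfp410 had 23 and 24, Zfp462 had 2 and 0, and Zfp516 had 24 and 5, a log2 ratio of -2.70 (-4.45 to -1.28).

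Few of the genes known from blood and immune cells were read. Zfp335, required for T cell development, had 55 and 106 reads and a log2 ratio of 0.51 (0.02 to 1.004), with 28.3% of its exonic bases opposite Pcif1 and Gm11458. Zfp318, which controls the IgD transcript of mature B cells, had 42 and 54 reads and a log2 ratio of -0.08 (-0.69 to 0.54). The progenitor factors Zfp521 and Zfp423 had 8 and 4 reads in 3xFNLDD and none in 3xFN-Tel-TAL, Zfp683 had 3 and 0, and Zfp608 had 2 and 6.

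The partners through which KRAB proteins repress were taken next, as 17 genes of which 15 reached 50 reads. Their median log2 ratio was 0.26, against 0.40 for all genes. Of the 15, 3 were above 1.4-fold, where the background is 42.2%, and 0 were below 1/1.4-fold, where it is 7.61%. Trim28, the corepressor itself, had 150 reads (20.8 RPM) with 3xFNLDD against 239 (24.5 RPM) with 3xFN-Tel-TAL, giving a log2 ratio of 0.23 (-0.07 to 0.54), and Setdb1 had 147 and 271 reads and 0.44 (0.15 to 0.74). The gene of the heterochromatin protein HP1 alpha, Cbx5, was the highest of these 15, with 293 reads (40.7 RPM) and 784 reads (80.2 RPM), a log2 ratio of 0.98 (0.78 to 1.18). Its relatives Cbx1 (56 and 75 reads, -0.02) and Cbx3 (50 and 94 reads, 0.47) were within 1.4-fold. The other genes above it were Uhrf1 (118 and 251 reads, 0.65) and Mta2 (66 and 132 reads, 0.56). With TMM scaling these were at 0.28 and 0.19, short of 1.4-fold, and Cbx5 stayed above it at 0.61. The remaining partners, Chd4 (-0.01), Mta1 (-0.23), Morc3 (-0.14), Atf7ip (0.18), Dnmt1 (0.21), Hdac1 (0.26), Smarcad1 (0.30) and Chd3 (0.45), were within 1.4-fold with library totals. With TMM scaling Mta1 and Morc3 were below 1/1.4-fold, at -0.60 and -0.51. Of all genes, 17.4% were then below and 18.7% above. Mphosph8 (15 and 26 reads, 0.35) and Hdac2 (8 and 33 reads, 1.605, interval 0.46 to 2.93) stayed below the minimum of 50 reads.

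A coding sequence was found for 174 of the 176 members in the GENCODE M1 annotation, and the translation of each was searched for the KRAB domain and for C2H2 fingers. The KRAB pattern is a run of 16 codons that begins with tryptophan, ends with valine and methionine or leucine, and has leucine, glutamine, leucine and tyrosine or phenylalanine at fixed places between. It was found in 60 members. The pattern is strict and misses known KRAB genes such as Zfp445 and Zfp568, so 'without the pattern' does not mean that a protein lacks the domain. The sequences below show it in capitals within 78 bases of the coding strand, for 3 members with low ratios (Zfp92, Zfp560, Zfp458) and 3 neighbours on chromosome 17 with high ratios (Zfp871, Zfp799, Zfp81).
Zfp92: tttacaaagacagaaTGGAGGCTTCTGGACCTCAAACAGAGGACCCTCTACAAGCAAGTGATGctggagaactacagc
Zfp560: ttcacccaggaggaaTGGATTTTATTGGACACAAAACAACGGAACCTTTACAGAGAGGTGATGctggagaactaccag
Zfp458: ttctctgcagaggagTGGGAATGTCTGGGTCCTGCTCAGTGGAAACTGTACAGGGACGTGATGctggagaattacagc
Zfp871: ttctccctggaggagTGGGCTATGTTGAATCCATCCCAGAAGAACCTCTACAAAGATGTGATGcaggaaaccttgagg
Zfp799: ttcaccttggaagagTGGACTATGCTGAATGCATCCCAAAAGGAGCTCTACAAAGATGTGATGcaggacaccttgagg
Zfp81: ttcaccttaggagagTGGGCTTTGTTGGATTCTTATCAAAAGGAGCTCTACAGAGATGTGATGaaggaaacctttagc
The stretches of the 3 neighbours on chromosome 17 were identical at 76.9% to 87.2% of positions. The 3 others, which lie on separate chromosomes, were identical at 61.5% to 67.9%, and pairs between the groups at 55.1% to 66.7%. The genes were chosen by ratio and position, so these values cannot show whether the sequence goes with the ratio.

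Members with the KRAB pattern had lower ratios than those without it. The median log2 ratio was 0.21 for the 60 with the pattern and 0.42 for the 114 without it. Above 1.4-fold were 10 of 60 (16.7%) with the pattern and 50 of 114 (43.9%) without it, beside the background of 42.2%. Below 1/1.4-fold were 6 (10%) and 4 (3.51%), beside 7.61%. Members without the pattern therefore lay near the distribution of all genes, and those with it were shifted to lower ratios. With TMM scaling the medians were -0.16 and 0.05, and 4 (6.67%) and 15 (13.2%) were above 1.4-fold, beside 18.7% of all genes. Below 1/1.4-fold were then 12 (20%) and 14 (12.3%), beside 17.4%. When members with the start of the domain were also counted as KRAB genes, 78 had a median of 0.24 and 96 had 0.43, with 15 (19.2%) and 45 (46.9%) above 1.4-fold. Genes are not replicates, and this difference between classes of genes within 1 pair of libraries was not tested.

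**Figure D3:**
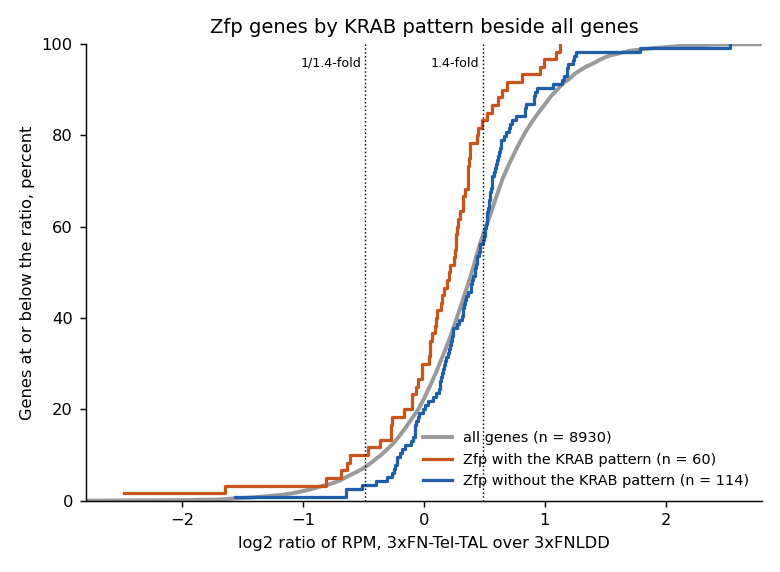
Cumulative share of genes (y, percent) at or below each log2 ratio of RPM, 3xFN-Tel-TAL over 3xFNLDD (x), for the 60 Zfp genes with the KRAB pattern, the 114 without it and all 8930 genes. The line of the KRAB genes lies to the left of the others, with medians of 0.21, 0.42 and 0.40.

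The KRAB genes also differed in composition and depth. Their transcripts had a median GC content of 42.5% against 50% for the members without the pattern, a median length of 3186 against 3753 bases, and a median of 121 against 161 reads. Within bands of GC content the KRAB genes had the lower median in 5 of 6 bands, the exception being 40 to 44% GC with 0.26 for 21 KRAB genes and 0.23 for 18 others. In the band of 48 to 52% GC the values were 0.01 for 6 and 0.36 for 21 genes. Within 5 bands of transcript length the KRAB genes were lower in each, by 0.02 to 0.37. The difference was smallest among the deepest members. The medians were -0.01 against 0.29 among members with 50 to 99 reads and 0.20 against 0.49 from 100 to under 200 reads. Among members with 200 reads or more they were 0.34 for 16 KRAB genes and 0.39 for 41 others. Some GC and length groups held fewer than 10 KRAB genes, and the part of GC content, length and depth in the difference was not tested further.

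Other families offered a comparison on the same scale. The 34 genes with the KRAB pattern under other symbols had a median log2 ratio of 0.04, with 8 (23.5%) above and 6 (17.6%) below 1.4-fold, beside 42.2% and 7.61% of all genes. The 41 genes named Zbtb, Zscan or Zkscan, zinc finger genes whose proteins mostly carry a BTB or SCAN domain, had a median of 0.52, with 22 (53.7%) above and 0 below. Genes of these names that carry the KRAB pattern were not removed from either set, so the sets can overlap. The 5 Klf genes had a median of 0.98, with 3 above and 1 below. With TMM scaling the counts above and below were 1 and 10 of the 34 KRAB genes, 10 and 5 of the 41 and 3 and 1 of the Klf genes, beside 18.7% and 17.4% of all genes. By the number of fingers, the median log2 ratio was 0.65 for 6 members in which the finger pattern was not found, 0.33 for 81 members with 1 to 9 fingers and 0.30 for 87 members with 10 or more. Within both of the latter classes the KRAB genes had the lower median, 0.15 against 0.39 and 0.25 against 0.42.

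All 176 members could be placed on GRCm38, and 64 of them formed 12 clusters of at least 3 members with gaps of at most 500 kb. Chromosome 7 held most, with 42 members and a median log2 ratio of 0.31, and chromosomes 13 and 17 held 16 each, with medians of 0.05 and 0.23. The clusters differed from each other. The lowest median, -0.22, was that of 9 members on chr13:67225137-67827000. Of these, 0 were above 1.4-fold and 3 below 1/1.4-fold, beside 42.2% and 7.61% of all genes. Its members were Zfp458 (40 and 31 reads, log2 ratio -0.81), Zfp457, Zfp953 (45 and 39 reads, -0.65), Zfp874a, Zfp493 (31 and 36 reads, -0.22), Zfp738 (38 and 46 reads, -0.16), Zfp459 (107 and 140 reads, -0.05), Zfp874b (76 and 128 reads, 0.31) and Zfp273 (25 and 45 reads, 0.41). Of the 9, 3 carried the KRAB pattern, and 8 carried it or the start of the domain. A530054K11Rik, a gene of the same interval that also carries the KRAB pattern, had 59 and 84 reads and a log2 ratio of 0.07. Zfp738 shares 30.4% of its bases with A530054K11Rik.

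The highest median, 0.94, was that of 7 members on chr17:32765496-33631716, and here 6 of 7 carried the KRAB pattern. That median rests on Zfp81 and Zfp414, which had under 25 reads with 3xFNLDD and passed the minimum through their reads with 3xFN-Tel-TAL. For the 5 members with at least 25 reads in each library the median was 0.48. Zfp871 had 84 reads (11.7 RPM) with 3xFNLDD against 248 (25.4 RPM) with 3xFN-Tel-TAL, giving a log2 ratio of 1.12 (0.76 to 1.497). Its neighbour Zfp799 had 72 reads (9.99 RPM) and 190 (19.4 RPM), 0.96 (0.56 to 1.37). Zfp81 had 17 and 46 reads, 0.996 (0.17 to 1.89), and Zfp414, the member without the pattern, had 15 and 39 reads, 0.94 (0.05 to 1.90). The members between them were lower, namely Zfp870 (35 and 47 reads, -0.01) and Zfp952 (65 and 97 reads, 0.14), with Zfp101 at 0.48. High and low members thus lay side by side in the cluster, and KRAB genes were found among both. Zfp871 and Zfp799 were the only KRAB members whose interval lay wholly above 1.4-fold.

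On chromosome 7, 7 members on chr7:127233061-127885996 had a median of 0.50, with 5 above 1.4-fold and 0 below 1/1.4-fold. The 19 other genes of that interval had a median of 0.32, with 9 above and 4 below. The background over all genes is 42.2% above and 7.61% below. None of the 6 members on chr7:24081877-25227876 carried the KRAB pattern, and 2 carried the start of the domain. The median of the 6 was -0.11, while 7 other genes of that interval had 0.50. Neighbours within a chromosomal interval therefore did not share 1 ratio.

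**Figure D4:**
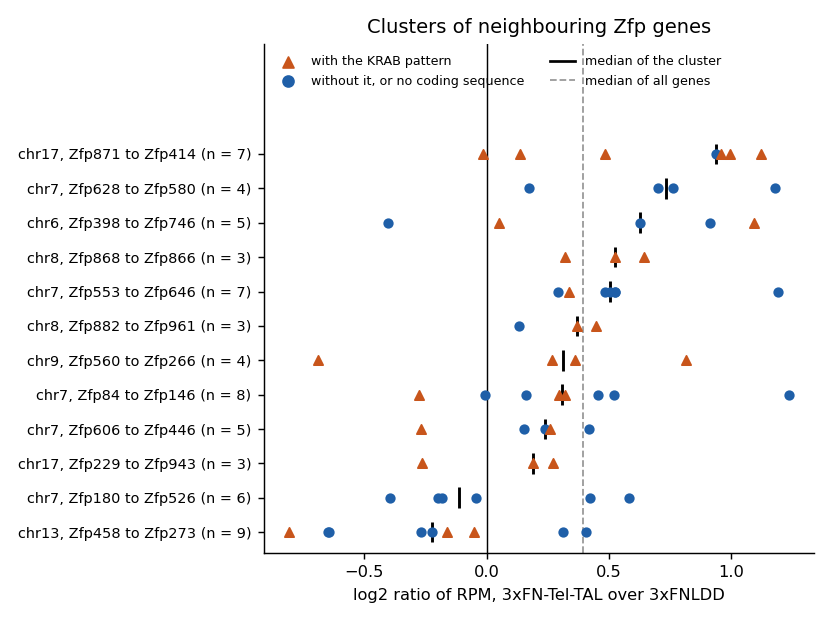
Log2 ratio of RPM, 3xFN-Tel-TAL over 3xFNLDD (x), of the 64 Zfp genes in 12 clusters of neighbouring members, ordered by the median of the cluster (black tick). Triangles are genes with the KRAB pattern. The chromosome 13 cluster has a median of -0.22 and the chromosome 17 cluster from Zfp871 to Zfp414 a median of 0.94.

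The promoters of the members were searched for the telomeric hexamer TTAGGG on either strand. In the RefSeq table (GRCm38.p6), 147 members matched with 187 promoters of 300 bases, and 31 of these promoters (16.6%) held the hexamer, against 3483 of 32851 promoters of all genes (10.6%). The 27 members with it had a median log2 ratio of 0.13, with 6 above 1.4-fold, and the 120 without it had 0.34, with 46 above. The background above 1.4-fold over all genes is 42.2%. Over all genes the medians were 0.38 for 736 genes with the hexamer and 0.42 for 5398 without it. Whether the Zfp genes differ in this from all genes was not tested. Only 4 promoters of the whole table held 2 hexamers in a row, and 2 of them were overlapping entries of Zfp932 that hold the same hexamers, the retroelement repressor whose interval around 0.29 included the median of all genes. They are shown for Zfp932 on chr5:109996384-109996449 and, with 1 hexamer, for Zfp827 on chr8:79028246-79028305, each on the plus strand with the hexamers in capitals. These letters are matches and not measured binding sites.
Zfp932: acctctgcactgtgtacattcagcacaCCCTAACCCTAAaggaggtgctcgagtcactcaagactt
Zfp827: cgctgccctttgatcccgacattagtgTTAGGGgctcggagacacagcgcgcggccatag

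The files list 492 transcripts for the 176 members, and 55 members have 1 transcript. Protein-coding transcripts took 86.7% of the members' reads, and their summed log2 ratio was 0.27 (0.24 to 0.30). Transcripts annotated with a retained intron took 5.64% and had 0.38 (0.25 to 0.52), so the intervals of these annotated types overlapped. In 20 members at least 2 transcripts had 50 reads or more, and in 5 of these the intervals of 2 transcripts did not overlap. The same count was not made over all genes, so whether 5 of 20 is usual is not known. How reads matching several transcripts were assigned is not given in the sources used here, and transcripts of a gene share much of their sequence.

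For Zfp422, 1 protein-coding transcript (ENSMUST00000079749) had 76 and 93 reads, a log2 ratio of -0.15 (-0.60 to 0.31), and the other (ENSMUST00000057540) had 8 and 64, a log2 ratio of 2.56 (1.496 to 3.83). Summed over its transcripts the gene had 0.43, and 17.8% of its bases are shared with other genes. In Zfp26, a KRAB gene, both were retained-intron transcripts. ENSMUST00000075263 had 34 and 36 reads, -0.36 (-1.07 to 0.36), and ENSMUST00000098970 had 14 and 73 reads, 1.94 (1.11 to 2.88). In Zfp142 and Zfp101 the protein-coding transcript was the higher. For Zfp142 it had 57 and 158 reads, 1.03 (0.59 to 1.49), against 64 and 72 reads, -0.27 (-0.78 to 0.24), for a retained-intron transcript. For Zfp101 it had 258 and 574 reads, 0.71 (0.50 to 0.93), against 124 and 149 reads, -0.17 (-0.53 to 0.18), for a processed transcript. Zfp644 went the other way: its protein-coding transcript had 40 and 47 reads, -0.21 (-0.85 to 0.44), and a retained-intron transcript had 15 and 56 reads, 1.46 (0.62 to 2.39). The summed ratio of 0.68 of Zfp644 therefore came from other transcripts than its main protein-coding one.

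**Figure D5:**
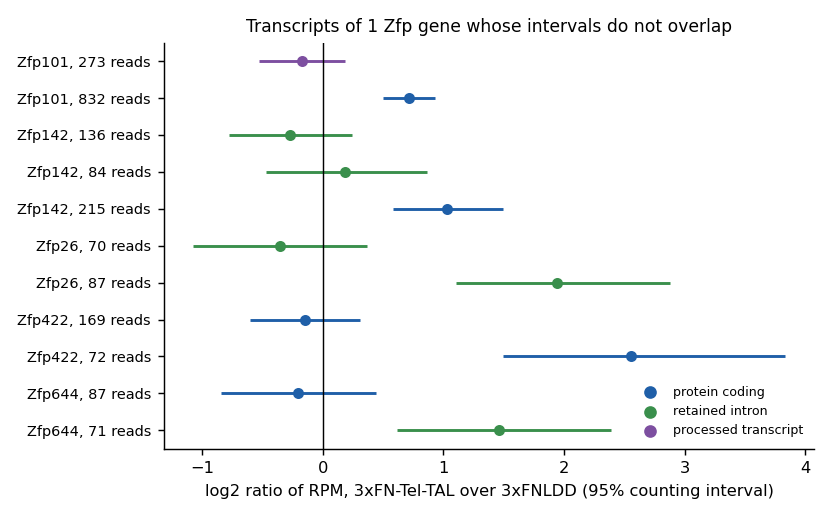
Log2 ratio of RPM, 3xFN-Tel-TAL over 3xFNLDD (x), with exact 95% counting intervals, of the transcripts with at least 50 reads in the 5 Zfp genes whose transcripts had intervals that do not overlap. Each line is 1 transcript with its reads over both libraries, and the colors give its type. In Zfp422 the 2 transcripts lie at -0.15 and 2.56.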

How the data were processed

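RNA isolated by enChIP with 3xFNLDD or 3xFN-Tel-TAL was sequenced in 2 libraries. For every Ensembl transcript the authors deposited its read count, not normalized, together with RPM, that count divided by the library total and scaled. Recomputed RPM differed from the deposited RPM by at most 4.8e-05. The submitters' processing notes name cutadapt and GRCm38 (mm10). The aligner, the annotation release and the handling of reads with several matches are not given in the sources used here.

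Counts were summed per symbol. Ratios and Clopper-Pearson intervals were computed in Python 3.11.15 (numpy 2.4.6, scipy 1.17.1, pandas 2.3.3), and TMM factors in edgeR 4.0.16 on transcripts with at least 10 reads. No pseudocount was used. No p-values are given because each condition has 1 library. Positions and promoters came from RefSeq (174 members by symbol, 2 by synonym). Transcript types, coding sequences and exon overlaps came from GENCODE M1 (NCBIM37), matched by identifier, in place of RefSeq proteins, which were not used here. Shared sequence was sought with BLAST 2.17.0 at 95% identity over at least 50 bases. A coding transcript of each member with a coding sequence was compared with the coding transcripts of other genes. Pseudogenes and other non-coding copies were not searched. The computation was tested on simulated data.

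Members and lists were chosen with earlier results of these data known. Named genes are the 6 with the most reads, the 8 highest and 8 lowest with at least 100 reads, lists by role, the symbols at the minimum of 50 reads, genes with discordant transcripts and the KRAB partners. Members of the described clusters, Zfp773 and Zfp777 were added after their values were seen.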

Additional observations from a re-analysis of the deposited data

How the results depend on the processing

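Scaling decided the counts. The median log2 ratio of the Zfp genes was 0.32 with library totals, -0.047 with TMM, 0.0060 with totals without the RNAs above 1% and -0.073 relative to the median of all genes. In the same order after library totals, 19, 23 and 19 members were above 1.4-fold and 28, 26 and 32 below 1/1.4-fold, against 60 and 10. A ratio threshold of 2 left 13 and 3, and an interval wholly past 1.4-fold left 12 and 3. A minimum of 100 reads kept 118 members, of which 44 were above and 5 below. A minimum of 200 reads kept 57 members, with 21 above and 2 below. With no minimum beyond 1 read in each library, 305 symbols remained, with 99 above and 38 below. These sets differ in size, and their median log2 ratios were 0.36, 0.37 and 0.26 in this order. The shares of all genes at these minimums were not computed. With the pseudocount of 1, the transcript with the most reads only, all symbols beginning with Zfp, or protein-coding transcripts only, every count stayed within 1.5 times. The last of these, and all settings for the KRAB pattern and clusters, were chosen after seeing the data. The median with the KRAB pattern minus that without it was -0.21, and -0.18 to -0.21 with a minimum of 100 reads, a broader pattern or members sharing under 10% of their bases. Above 1.4-fold were 4 of 60 members with the pattern and 15 of 114 without it under TMM scaling. At a minimum of 100 reads they were 6 of 36 (16.7%) and 38 of 82 (46.3%). With the most-read transcript only, Zfp644 turned to -0.21, Zfp422 from 0.43 to -0.15 and Zfp259 from -0.25 to 0.09, while Zfp568 (1.15), Zfp142 (1.03), Zfp101 (0.71), Zfp26 (1.94) and Zfp148 (-0.54) left the interval of the summed reads. The cause was not tested where a value came from fewer transcripts.

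No paired analysis was possible because each condition has 1 library, and no library was left out for the same reason. Culture, isolation and library preparation cannot be told apart from the expressed protein.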
